A study of Homo sapiens with 4 samples.

Results

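The serine and one-carbon enzymes and a set of further targets of the transcription factor ATF4 were followed in Synph-293 cells and in HEK293 cells. The 10 genes were taken by symbol from the deposited table, and all 10 were found among its 60676 genes and had enough reads to be tested. They comprise 6 enzymes of serine synthesis and mitochondrial folate metabolism (ALDH1L2, MTHFD2, SHMT2, PHGDH, PSAT1 and PSPH) and 4 other ATF4 targets (ASNS, CHAC1, TRIB3 and DDIT3). They were chosen by earlier fold changes between the same libraries, in particular the low ALDH1L2 level in Synph-293, so their fold changes describe the data and carry no test.

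Synph-293 (2 libraries, labelled as the genotype synphilin-1 overexpression) is derived from HEK293, a line from human embryonic kidney, and HEK293 itself (2 libraries, labelled WT) served as the control. Both were grown without treatment in the same serum-containing medium, and stranded mRNA libraries were sequenced as read pairs. The labels do not say whether Synph-293 is 1 clone or a pool, how synphilin-1 expression is driven, or whether separate cultures gave the libraries of a group. The p-values therefore measure the spread between these libraries, which may be technical. In bulk RNA, fewer cells making a transcript and less transcript per cell cannot be told apart.

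Library totals were 16471847 and 16634633 counts in Synph-293 and 16998732 and 13284417 counts in HEK293. SNCAIP, which encodes synphilin-1, had 22911 and 24834 counts in Synph-293 and 17 and 16 counts in HEK293. Of 8 kidney and adrenal lineage markers, 4 (PAX2, PAX8, CDH16 and NR5A1) did not reach 10 counts in every library, and the summed level of all 8 was 35.3 to 38.2 TPM in Synph-293 and 27.5 to 32.6 TPM in HEK293. Of 5 epithelial and mesenchymal markers, 4 reached 10 counts in every library and CDH1 did not, with a summed level of 2232 to 2720 TPM in Synph-293 and 1275 to 1619 TPM in HEK293. Of 4 neuronal markers, STMN2 and INA were at 0 in all 4 libraries and 1 reached 10 counts in every library, with a summed level of 61.2 to 73.2 TPM in Synph-293 and 15.9 to 17.5 TPM in HEK293. None of the 4 blood or 3 endothelial markers reached 10 counts in every library. Of 4 fibroblast markers, 2 did, and that list summed to 31.7 to 34.7 TPM in Synph-293 and 17.5 to 19.4 TPM in HEK293; the part of these markers in the results was not tested.

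Cells make serine from the glycolytic intermediate 3-phosphoglycerate through PHGDH, PSAT1 and PSPH. In mitochondria SHMT2 passes a carbon unit of serine to tetrahydrofolate, and MTHFD2 oxidises it further. ALDH1L2 then oxidises 10-formyltetrahydrofolate to carbon dioxide and tetrahydrofolate, with formation of NADPH. Many of these genes are induced by ATF4, which is translated when the initiation factor eIF2 is phosphorylated. The same factor induces asparagine synthetase (ASNS), the glutathione-degrading enzyme CHAC1, the pseudokinase TRIB3 and the transcription factor CHOP (DDIT3).

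Within this group ALDH1L2 stood apart. Its level was 2.04 and 2.60 TPM in the Synph-293 libraries and 14.03 and 16.92 TPM in the HEK293 libraries. The groups did not overlap, and both Synph-293 libraries were far below both HEK293 libraries. In CPM, which are counts scaled to a common library size, ALDH1L2 averaged 10.5 ± 0.731 CPM in Synph-293 and 72.2 ± 3.36 CPM in HEK293 (SD, n = 2 each). On the log2 scale this was a fold change of -2.78 ± 0.17 (SE, edgeR), with a 95% interval of -3.14 to -2.41, which is a level 6.85-fold higher in HEK293. Of all 16421 genes tested, 36 had a lower log2 fold change, and of the 12015 with at least 5 CPM in HEK293, 8 did. The other 5 enzymes of the group had log2 fold changes between -0.30 and 0.06. An absolute log2 fold change under 0.5 was found for 70.9% of all genes tested. The groups did not overlap in CPM for 1 of the 5, against 59.6% of all genes tested.

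**Figure D1:**
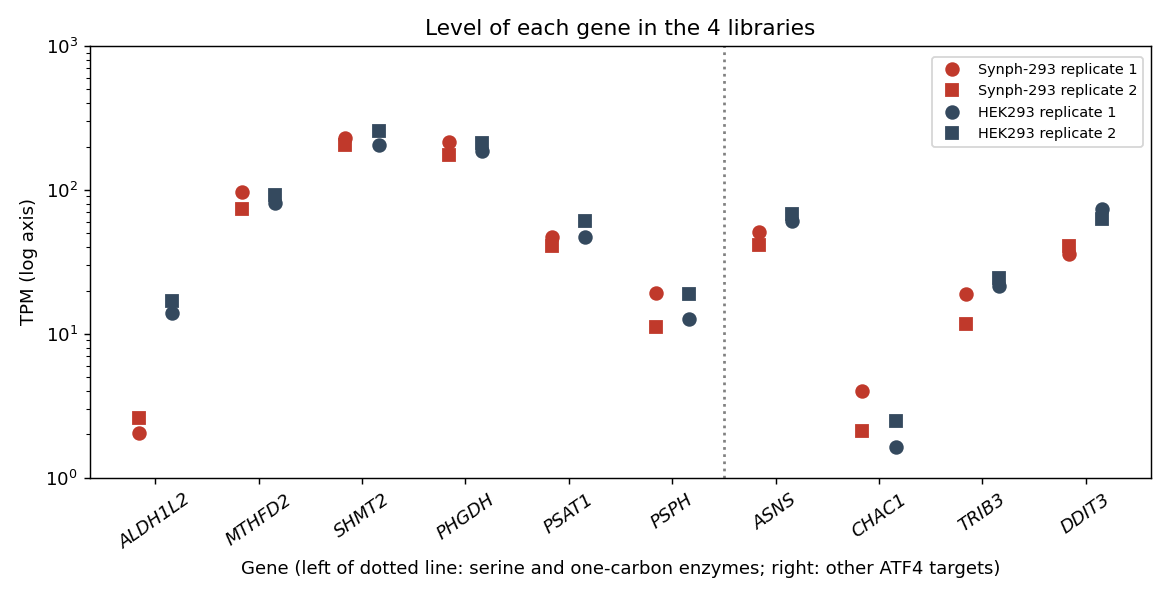
Level of each of the 10 genes in TPM, on a log axis, in the 2 Synph-293 libraries (red, left of each pair) and the 2 HEK293 libraries (dark, right); circles are replicate 1 and squares replicate 2. ALDH1L2 lies at 2.04 and 2.60 TPM in Synph-293 against 14.03 and 16.92 TPM in HEK293, while the libraries of MTHFD2, SHMT2, PHGDH and PSPH overlap.

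Across all 16421 genes tested, 16.6% passed an adjusted p of 0.05 in edgeR's quasi-likelihood test with Benjamini-Hochberg adjustment, 6.58% of all genes as lower and 10% as higher in Synph-293. Of the 10 genes, 3 passed as lower (ALDH1L2, ASNS and DDIT3) and 7 did not pass. The choice of the genes used this contrast, so nothing is read from these counts. The groups did not overlap in CPM for 5 of the 10 genes, against 59.6% of all genes tested; in all 5 the Synph-293 libraries were the lower ones, an arrangement found in 29.1% of all genes, and the opposite one was found in 30.5%. The median log2 fold change was -0.16 over the 6 enzymes, -0.11 without ALDH1L2 and -0.54 over the 4 other ATF4 targets, against -0.01 over all genes tested. The enzyme median was -0.33 without HEK293 replicate 1, 0.0050 without HEK293 replicate 2, and -0.07 when Synph-293 replicate 2 was left out.

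PHGDH (ENSG00000092621; chr1:119648411-119744226, plus strand), the dehydrogenase that commits 3-phosphoglycerate to serine, had 213.53 and 175.14 TPM in Synph-293 and 187.40 and 211.54 TPM in HEK293. In TPM both HEK293 libraries lay between the Synph-293 libraries, and in CPM the 2 pairs of libraries interleaved. Its log2 fold change was -0.11 ± 0.18 (SE, 95% interval -0.51 to 0.29).

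PSAT1 (ENSG00000135069; chr9:78297125-78330093, plus strand), the phosphoserine aminotransferase, had 46.95 and 40.61 TPM in Synph-293 and 47.23 and 61.12 TPM in HEK293. The groups were adjacent without overlap, separated by the small gap between Synph-293 replicate 1 and HEK293 replicate 1. Its fold change was -0.30 ± 0.17 on the log2 scale (SE, 95% interval -0.67 to 0.06). It was -0.48 without HEK293 replicate 1, where it passed the threshold, and -0.13 without HEK293 replicate 2. With the median of its 30 nearest tested genes removed as an offset it was 0.024.

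PSPH (ENSG00000146733; chr7:56011051-56051604, minus strand), the phosphatase that releases serine, was the least abundant of the synthesis enzymes. It had 19.21 and 11.12 TPM in Synph-293 and 12.62 and 18.84 TPM in HEK293, so the libraries of a group differed from each other more than the group means did. Its log2 fold change was 0.06 ± 0.21 (SE, 95% interval -0.41 to 0.52). 

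SHMT2 (ENSG00000182199; chr12:57229573-57234935, plus strand), the mitochondrial serine hydroxymethyltransferase, had 228.30 and 206.64 TPM in Synph-293 and 205.72 and 254.81 TPM in HEK293. Both Synph-293 libraries fell between the HEK293 libraries. SHMT2 had a log2 fold change of -0.22 ± 0.18 (SE, 95% interval -0.61 to 0.17), -0.38 without HEK293 replicate 1 and -0.06 without HEK293 replicate 2.

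MTHFD2 (ENSG00000065911; chr2:74198610-74217565, plus strand), the mitochondrial methylenetetrahydrofolate dehydrogenase, had 96.52 and 73.82 TPM in Synph-293 and 81.35 and 91.92 TPM in HEK293. Here the HEK293 libraries lay between the Synph-293 libraries. MTHFD2 had a log2 fold change of 0.05 ± 0.17 (SE, 95% interval -0.31 to 0.42). For these 5 enzymes the intervals leave room for changes of up to -0.67 in PSAT1 and 0.52 in PSPH on the log2 scale. The upper end of the ALDH1L2 interval, -2.41, lies below all of these. By edgeR, 0 of the 5 passed at an unadjusted p of 0.05, which 31.8% of all genes did, and 0 passed by DESeq2 or by limma on TPM. The genes were chosen with this contrast known, so nothing is read from these counts or from the gap between the intervals.

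**Figure D2:**
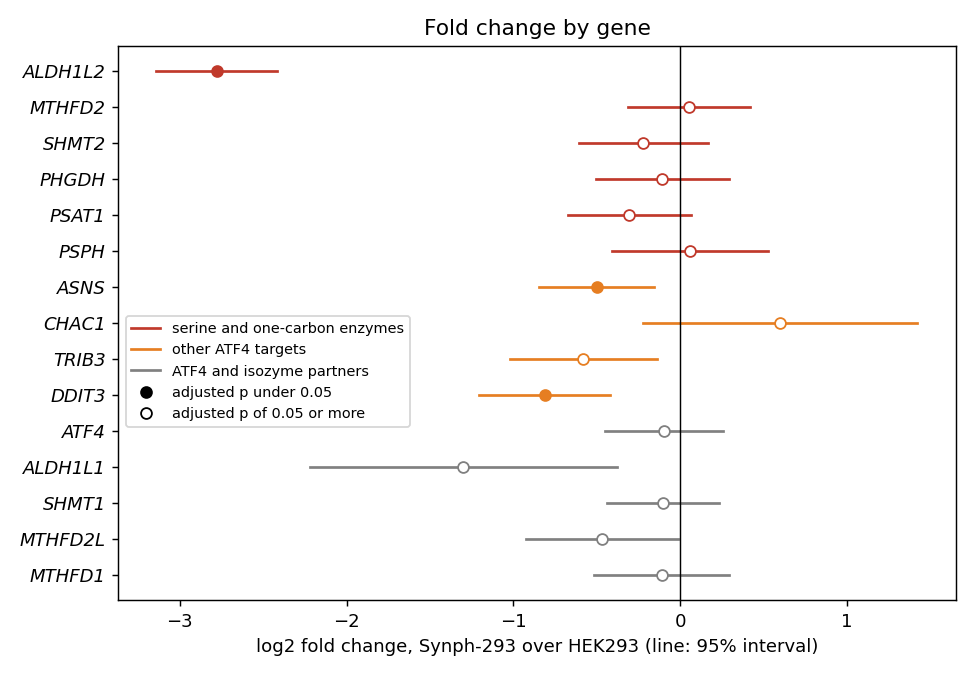
Log2 fold change of Synph-293 over HEK293 (edgeR; lines are 95% intervals) for the 6 serine and one-carbon enzymes (red), the 4 other ATF4 targets (orange) and ATF4 with the isozyme partners (grey); filled points had an adjusted p under 0.05. The interval of ALDH1L2, -3.14 to -2.41, does not meet that of any other enzyme of the 6. ALDH1L2 was chosen by this contrast, so the gap carries no test.

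Within each library the enzymes differed widely in TPM, and ALDH1L2 was a small part of their sum. The range was 2.04 (ALDH1L2) to 228.30 TPM (SHMT2) in Synph-293 replicate 1. It was 12.62 (PSPH) to 205.72 TPM (SHMT2) in HEK293 replicate 1. The 6 enzymes together had 607 and 510 TPM in Synph-293 and 548 and 655 TPM in HEK293. ALDH1L2 made up 0.336% and 0.510% of that sum in Synph-293 and 2.56% and 2.58% in HEK293. In HEK293 the order by mean TPM was SHMT2, PHGDH, MTHFD2, PSAT1, PSPH and ALDH1L2, with SHMT2 at 230 ± 34.7 and PHGDH at 199 ± 17.1 TPM not separated beyond their spread, and PSPH at 15.7 ± 4.40 and ALDH1L2 at 15.5 ± 2.04 TPM likewise (SD, n = 2 each). In Synph-293 the order was the same, but ALDH1L2 at 2.32 ± 0.396 TPM was clear of PSPH at 15.2 ± 5.72 TPM (SD, n = 2 each).

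Each mitochondrial folate enzyme has a relative with a similar reaction, and the ratio of their TPM values within a library shows which transcript of a pair is the more abundant. ALDH1L1 is the cytosolic 10-formyltetrahydrofolate dehydrogenase. The ratio of ALDH1L2 to ALDH1L1 was 2.72 and 4.26 in Synph-293 and 12.6 and 19.9 in HEK293. ALDH1L1 itself was close to the limit of detection, with 9 and 15 counts in Synph-293 and 36 and 19 counts in HEK293. In TPM it had 0.75 and 0.61 in Synph-293 and 1.11 and 0.85 in HEK293. Counts and TPM thus order the Synph-293 libraries oppositely, and the ratio to ALDH1L1 is imprecise. By counts the log2 fold change of ALDH1L1 was -1.30 ± 0.42 (SE, edgeR adjusted p = 0.0555). Among the alternatives that kept every library, it passed only with no filter (edgeR adjusted p = 0.0271). Without HEK293 replicate 2 the log2 fold change was -1.55.

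The ratios of the other pairs differed less between the cell lines. SHMT2 to the cytosolic SHMT1 had ratios of 5.21 and 5.85 in Synph-293 and 5.15 and 5.54 in HEK293. MTHFD2 to its paralogue MTHFD2L had ratios of 14.6 and 12.97 in Synph-293 and 9.64 and 12.2 in HEK293. MTHFD2 to the cytosolic trifunctional enzyme MTHFD1 had ratios of 0.523 and 0.445 in Synph-293 and 0.502 and 0.425 in HEK293. The groups overlapped for MTHFD2 to MTHFD1 and for SHMT2 to SHMT1, but not for MTHFD2 to MTHFD2L, where MTHFD2L had a log2 fold change of -0.47 ± 0.21 (SE, edgeR adjusted p = 0.147). MTHFD2L passed without HEK293 replicate 2 (log2 fold change -0.60, adjusted p = 0.0429; 0.0429 to 0.472 over its alternatives). The ratio of ALDH1L2 to MTHFD2, successive steps of the mitochondrial pathway, was 0.0211 and 0.0352 in Synph-293 and 0.172 and 0.184 in HEK293.

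**Figure D3:**
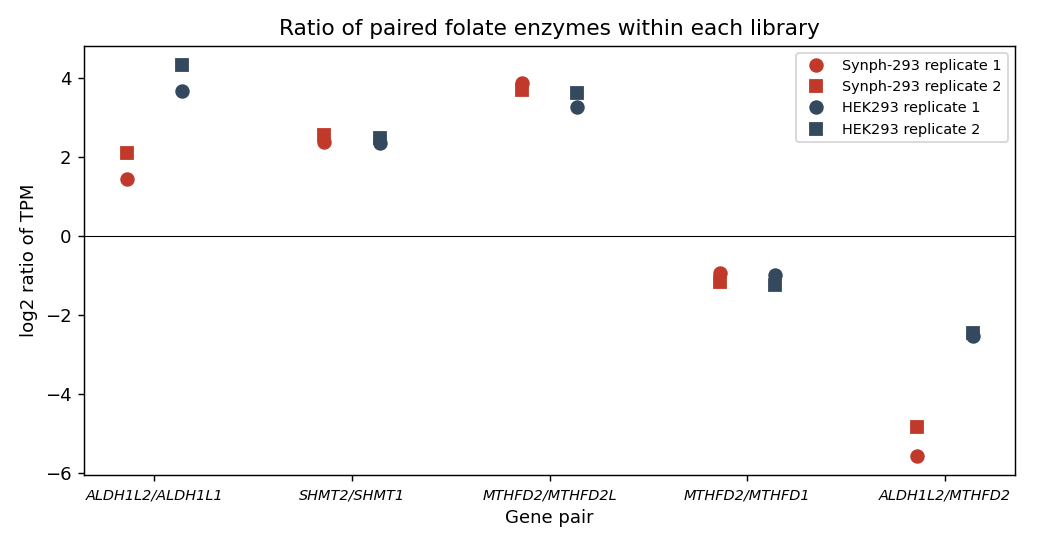
Log2 ratio of TPM within each library for 5 pairs of folate enzymes, in Synph-293 (red, left of each pair) and HEK293 (dark, right); circles are replicate 1 and squares replicate 2. The pairs with ALDH1L2 lie lower in both Synph-293 libraries (ratios to MTHFD2 of 0.0211 and 0.0352 against 0.172 and 0.184 in HEK293), and the libraries overlap for SHMT2 to SHMT1 and MTHFD2 to MTHFD1.

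ALDH1L2 (ENSG00000136010) lies on the minus strand of chromosome 12, from 105019784 to 105107643 (GRCh38), and overlaps 2 genes of the opposite strand, C12orf45 and WASHC4. Which strand setting the authors counted with is not stated in the labels or headers, so reads of the overlapping stretches may have been counted for either gene. C12orf45 had a log2 fold change of -0.10 ± 0.16 (SE, edgeR adjusted p = 0.706). WASHC4, a subunit of the endosomal WASH complex, was lower, at 46.1 ± 5.36 CPM in Synph-293 and 73.2 ± 15.3 CPM in HEK293 (SD, n = 2 each; log2 fold change -0.67 ± 0.18 SE, edgeR adjusted p = 0.0276). The 4 nearest tested genes on each side had log2 fold changes between -0.72 (NUAK1) and -0.0069 (C12orf75). The median over the 30 nearest tested genes was -0.27, and with that median removed as an offset ALDH1L2 was at -2.51. ALDH1L2 was chosen by its change between these libraries, so this refit carries no test.

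**Figure D4:**
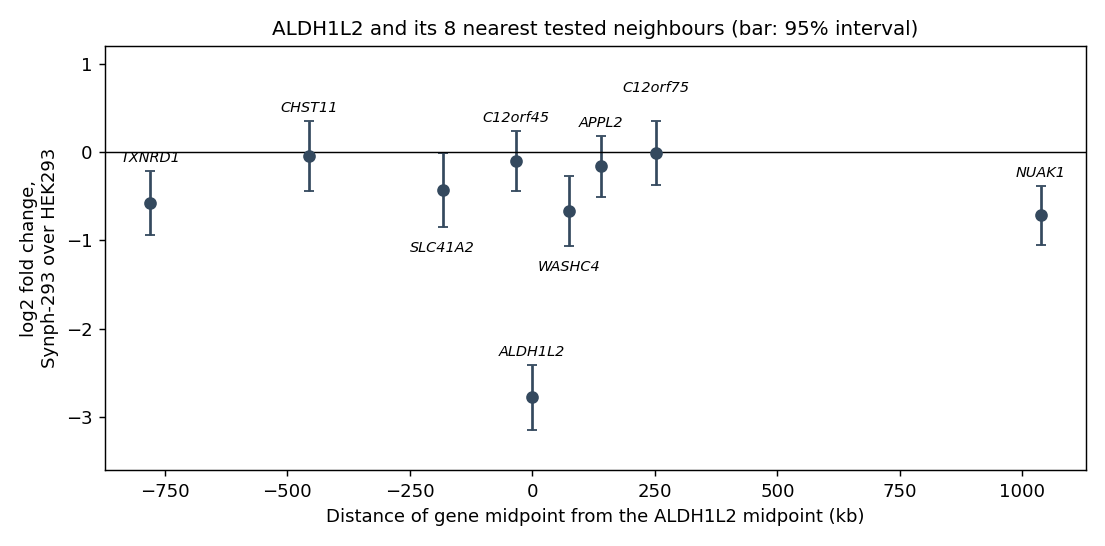
Log2 fold change of Synph-293 over HEK293 (edgeR; bars are 95% intervals) for ALDH1L2 and the 4 nearest tested genes on each side, by the distance in kb of each gene's midpoint from that of ALDH1L2. The 8 neighbours lie between -0.72 and -0.0069, and ALDH1L2 lies at -2.78.

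Among the 5 genes most like ALDH1L2 over the 4 libraries were CNKSR1, IKZF3, RDH10 and ARSD, by the smallest Euclidean distance between centred log2 CPM values among 11489 other protein-coding genes with a mean of at least 5 CPM. The distances of these 4 lay between 0.335 for CNKSR1 and 0.549 for ARSD. RDH10, a retinol dehydrogenase, averaged 18.8 ± 0.218 CPM in Synph-293 and 156 ± 25.9 CPM in HEK293 (SD, n = 2 each). None of the other enzymes or ATF4 targets of the group was among the 5. The distance rests largely on the difference between the cell lines by which ALDH1L2 was chosen, so their absence is no separate evidence.

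ATF4, the shared regulator, had 327.26 and 290.70 TPM in Synph-293 and 324.27 and 339.42 TPM in HEK293. In TPM Synph-293 replicate 1 lay between the HEK293 libraries, but in CPM the groups did not overlap, with 274 and 266 CPM in Synph-293 and 289.7 and 289 CPM in HEK293. Its log2 fold change was -0.10 ± 0.16 (SE, 95% interval -0.45 to 0.26; edgeR adjusted p = 0.727). ATF4 is controlled largely at translation, which RNA counts do not measure.

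ASNS (ENSG00000070669; chr7:97851677-97872542, minus strand), which makes asparagine from aspartate and glutamine, had 51.09 and 41.71 TPM in Synph-293 and 60.66 and 67.70 TPM in HEK293. Both Synph-293 libraries were below both HEK293 libraries. The log2 fold change was -0.50 ± 0.16 (SE, 95% interval -0.84 to -0.16). Leaving out Synph-293 replicate 1 gave -0.59 and leaving out Synph-293 replicate 2 gave -0.41, and ASNS did not pass the threshold in either case, nor by DESeq2, by limma on TPM, with no filter or with the neighbour median removed (-0.53). ASNS overlaps a long non-coding RNA of the same strand, AC079781.5, which had 92 and 44 counts in Synph-293 and 92 and 70 counts in HEK293, so reads could be split between them.

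DDIT3 (ENSG00000175197; chr12:57516588-57521737, minus strand), which encodes the stress transcription factor CHOP, had 35.98 and 40.49 TPM in Synph-293 and 74.16 and 62.31 TPM in HEK293. The groups were well apart, with HEK293 replicate 1 highest. The log2 fold change was -0.81 ± 0.18 (SE, 95% interval -1.20 to -0.42), and DDIT3 no longer passed without Synph-293 replicate 1, where the log2 fold change was -0.66. DDIT3 overlaps MARS1 and MBD6 on the opposite strand, which had log2 fold changes of -0.19 and -0.12.

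TRIB3 (ENSG00000101255; chr20:362835-397559, plus strand), a pseudokinase induced by ATF4 and CHOP that restrains AKT signalling and ATF4, had 18.79 and 11.76 TPM in Synph-293 and 21.63 and 24.61 TPM in HEK293. Synph-293 replicate 2 was lowest and the groups did not overlap. The log2 fold change was -0.58 ± 0.20 (SE, 95% interval -1.02 to -0.14), which did not pass the threshold. TRIB3 passed without HEK293 replicate 1 (-0.67), HEK293 replicate 2 (-0.51) or Synph-293 replicate 1 (-0.88), and stood at -0.33 with Synph-293 replicate 2 left out.

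CHAC1 (ENSG00000128965; chr15:40952962-40956512, plus strand), a gamma-glutamylcyclotransferase that breaks down glutathione, was the least abundant of the 4 and had the opposite sign. It had 59 and 32 counts in Synph-293 and 24 and 30 counts in HEK293, or 4.04 and 2.13 TPM in Synph-293 and 1.63 and 2.50 TPM in HEK293. The groups overlapped, and Synph-293 replicate 1 alone was high. The log2 fold change was 0.60 ± 0.37 (SE, 95% interval -0.22 to 1.42), with 0.13 when Synph-293 replicate 1 was left out and 0.95 when Synph-293 replicate 2 was.

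ATF4 binds, with a partner of the C/EBP family, to a composite element whose core was searched here as TGATGNAA on both strands. The promoter windows were RefSeq sequences of GRCh38.p14, each 250 bases before to 50 after a gene start, which were present for 7 of the 10 genes (all but ALDH1L2, SHMT2 and PSPH) and held the core in 2, ASNS and CHAC1. Of all 35116 windows in the table, 3.62% held it. That share is per window, whereas each gene counts once, and ASNS, TRIB3 and DDIT3 had 2, 3 and 2 windows. The share and the count of genes are therefore not compared. The stretches around both matches are shown because these genes had opposite signs; capitals mark the core, read on the gene's strand, and in CHAC1 the core is on the opposite strand.
ASNS, minus strand, chr7:97872458-97872487: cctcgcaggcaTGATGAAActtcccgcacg
CHAC1, plus strand, chr15:40953251-40953280: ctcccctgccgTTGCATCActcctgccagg
The core began 68 bases before the RefSeq start at 97872408 in ASNS, in 1 of its 2 windows, and 209 bases before the RefSeq start at 40953471 in CHAC1. Both RefSeq starts lie inside the gene spans of the deposited table given above, and so do both stretches. ASNS stood at 0.706 times the HEK293 level, with 11.9% of all tested genes at a lower log2 fold change, while CHAC1 stood at 1.52 times the HEK293 level with an interval that includes no change.

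Further ATF4 and integrated stress response targets moved in both directions. Of 29 tested from 32 listed, 3 were higher and 3 lower in Synph-293, with a median log2 fold change of -0.10, against -0.01 over all genes; calls made up 20.7% of the list, against 16.6% of all genes. The count of lower genes was 8 without HEK293 replicate 2, 5 without HEK293 replicate 1 or with no filter, and 1 without Synph-293 replicate 1 or with the neighbour median removed. GDF15, a stress-induced cytokine, had 10.4 and 9.94 CPM in Synph-293 and 4.27 and 2.77 CPM in HEK293. DDIT4, an inhibitor of mTORC1, had 34.0 and 28.9 CPM in Synph-293 and 16.4 and 16.4 CPM in HEK293. Both were higher in each Synph-293 library, with log2 fold changes of 1.51 ± 0.25 for GDF15 (SE, edgeR adjusted p = 0.00196, 1.13e-08 to 0.00807 over its alternatives) and 0.94 ± 0.17 for DDIT4 (SE, edgeR adjusted p = 0.00314, 3.11e-05 to 0.0276 over its alternatives).

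TNFRSF10B, a death receptor induced by CHOP, was the third, at 0.74 ± 0.20 (SE, edgeR adjusted p = 0.0284), and did not pass without Synph-293 replicate 2 (log2 fold change 0.64, adjusted p = 0.161) or by limma on TPM. SLC7A11, the cystine transporter, had 11.7 and 14.98 CPM in Synph-293 and 43.9 and 26.8 CPM in HEK293, a log2 fold change of -1.41 ± 0.23 (SE, edgeR adjusted p = 0.00214). Both Synph-293 libraries were lower, and the change was -1.72 without HEK293 replicate 2 and -1.01 without HEK293 replicate 1. SLC7A5, the large neutral amino acid transporter, was at -0.74 ± 0.17 (SE, edgeR adjusted p = 0.0127) and did not pass without Synph-293 replicate 1 (-0.64, adjusted p = 0.225) or 2 (-0.84, adjusted p = 0.0773), or with the neighbour median removed (-0.45, adjusted p = 0.129). CTH, which makes cysteine from cystathionine, was at -0.70 ± 0.21 (SE, edgeR adjusted p = 0.0416) and did not pass without Synph-293 replicate 1 (-0.58, adjusted p = 0.306) or 2 (-0.81, adjusted p = 0.124), by DESeq2 (adjusted p = 0.0994) or with the neighbour median removed (-0.33, adjusted p = 0.387); TNFRSF10B and CTH were named after their values were seen. Averaged over the list, log2 CPM minus its 4-library mean was -0.04 and -0.00016 in Synph-293 and 0.06 and -0.02 in HEK293.

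Among folate and one-carbon genes outside the 6 enzymes, 19 of 20 were tested, 1 was higher and 1 was lower (10.5% called, against 16.6% of all genes), and the median log2 fold change was -0.19. SLC25A32, a mitochondrial folate carrier, had 14.9 and 13.1 CPM in Synph-293 and 22.7 and 28.9 CPM in HEK293 (log2 fold change -0.88 ± 0.18 SE, edgeR adjusted p = 0.00811). FPGS, which adds glutamate to folates and holds them in the cell, had 36.4 and 32.3 CPM in Synph-293 and 22.2 and 22.9 CPM in HEK293 (log2 fold change 0.61 ± 0.16 SE, edgeR adjusted p = 0.0240). Removing the median of the 30 nearest tested genes ended both calls: SLC25A32 was at -0.24 (adjusted p = 0.489) and FPGS at 0.064 (adjusted p = 0.861). Without Synph-293 replicate 2 neither passed (SLC25A32 -0.79, adjusted p = 0.0597; FPGS 0.69, adjusted p = 0.0888), and FPGS did not pass without Synph-293 replicate 1 (0.53, adjusted p = 0.248). The count of lower genes in the list rose without HEK293 replicate 2, as it did over all genes.

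Of 20 tested genes for serine and glycine use and transport, SLC38A5 alone was called in edgeR (5%, against 16.6% of all genes). An unadjusted p under 0.05 was found for 6 of them (30%, against 31.8% of all genes). More of them were called lower without HEK293 replicate 2, as was the case over all genes. SLC38A5, a transporter of glutamine, serine and glycine, had 11 and 6 counts in Synph-293 and 552 and 359 counts in HEK293. Both Synph-293 libraries were nearly empty, with a log2 fold change of -5.84 ± 0.29 (SE, edgeR adjusted p = 4.85e-07). Of the 10 tested purine synthesis and methyl cycle genes, 0 passed in edgeR, DESeq2 or limma, and 0 had an unadjusted p under 0.05 in edgeR. Their log2 fold changes lay between -0.39 (AHCY) and 0.16 (MAT2B). The count of lower genes in this list rose without HEK293 replicate 1, as it did over all genes.

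**Figure D5:**
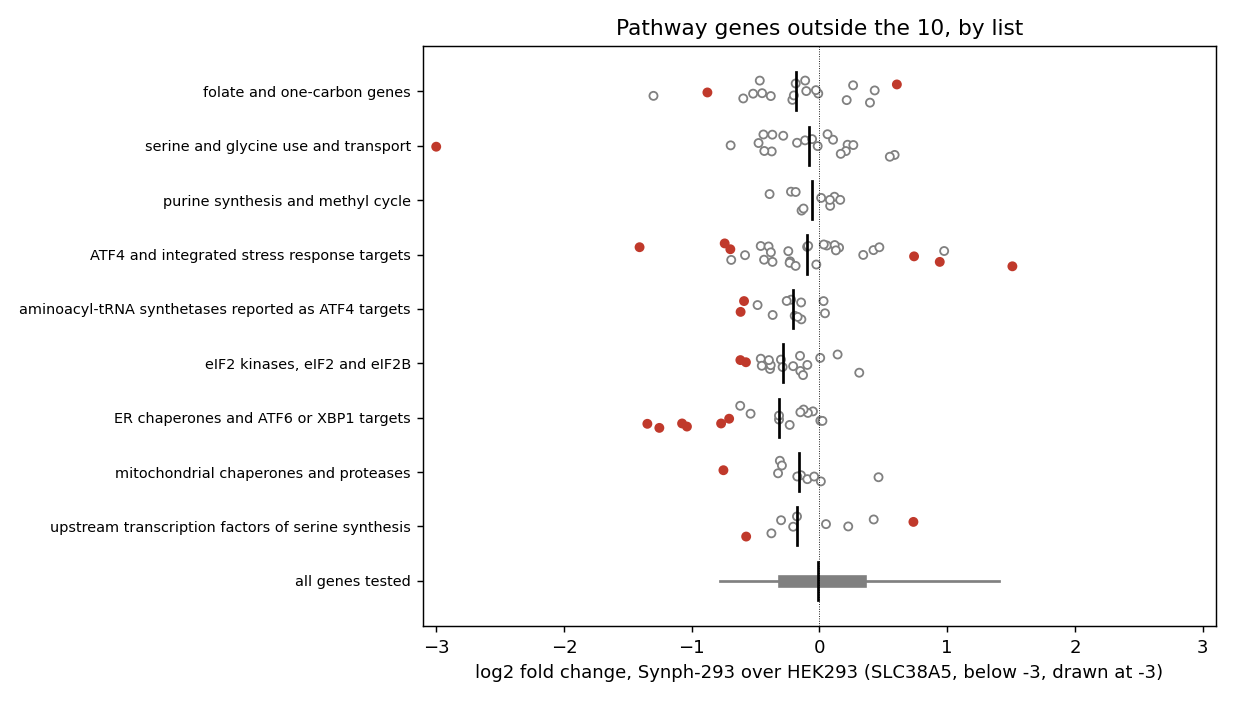
Log2 fold change of Synph-293 over HEK293 for the tested genes of 9 lists outside the 10 genes; red points had an adjusted p under 0.05 (edgeR), black bars are medians, and the last row gives the median, the quartiles (thick line) and the 5th to 95th percentile (thin line) of all genes tested. ATF4 targets scatter to both sides around a median of -0.10, and 6 of 17 ER chaperone genes are lower.

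Among the 12 aminoacyl-tRNA synthetases reported as ATF4 targets, which charge tRNAs with amino acids, 2 were lower (16.7% called, against 16.6% of all genes), with a list median of -0.21. AARS1 was at -0.59 ± 0.16 (SE, edgeR adjusted p = 0.0305) and YARS1 at -0.62 ± 0.19 (SE, edgeR adjusted p = 0.0476). AARS1 did not pass without Synph-293 replicate 1 (-0.62, adjusted p = 0.260) or 2 (-0.55, adjusted p = 0.340), and YARS1 passed without HEK293 replicate 1 but not without HEK293 replicate 2 (-0.36, adjusted p = 0.132), Synph-293 replicate 1 (-0.72, adjusted p = 0.145) or Synph-293 replicate 2 (-0.51, adjusted p = 0.372). Upstream, of 17 genes for the eIF2 kinases, eIF2, eIF2B and their partners, PPP1R15B and OMA1 were lower (11.8% called, against 16.6% of all genes), with a list median of -0.29. PPP1R15B, which directs dephosphorylation of eIF2, was at -0.58 ± 0.15 (SE, edgeR adjusted p = 0.0264), and OMA1, the mitochondrial protease that activates the DELE1 relay, at -0.62 ± 0.16 (SE, edgeR adjusted p = 0.0256). Neither passed without Synph-293 replicate 1 (PPP1R15B -0.56, adjusted p = 0.274; OMA1 -0.54, adjusted p = 0.263) or 2 (PPP1R15B -0.58, adjusted p = 0.256; OMA1 -0.68, adjusted p = 0.126). None of these 4 genes passed with the neighbour median removed. PERK (EIF2AK3) had a log2 fold change of -0.45 ± 0.19 (SE, edgeR adjusted p = 0.120) and GCN2 (EIF2AK4) of -0.13 ± 0.18 (SE, edgeR adjusted p = 0.668), and these 2 kinases were named after their values were seen.

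Of 17 genes for ER chaperones and related targets of ER stress, which share inducers with DDIT3, 6 were lower and 0 higher in Synph-293 (35.3% called, against 16.6% of all genes), with a median of -0.32. The list was chosen with earlier results of these data known, so nothing is read from that share. HSPA5 (-0.23, edgeR adjusted p = 0.482) and XBP1 (-0.12, edgeR adjusted p = 0.711), named after their values were seen, did not pass. PDIA4, a disulfide isomerase, was at -1.35 ± 0.22 (SE, edgeR adjusted p = 0.00210) and HERPUD1, of ER-associated degradation, at -1.08 ± 0.17 (SE, edgeR adjusted p = 0.00139). HYOU1, an ER chaperone, was at -1.25 ± 0.21 (SE, edgeR adjusted p = 0.00209), and DNAJC3, an inhibitor of eIF2 kinases, at -1.04 ± 0.19 (SE, edgeR adjusted p = 0.00395). With the neighbour median removed HYOU1 was at -0.72 (adjusted p = 0.0467), and DNAJC3, at -0.60 (adjusted p = 0.0723), did not pass. Averaged over these genes, log2 CPM minus its 4-library mean was -0.36 and -0.13 in Synph-293 and 0.48 and 0.01 in HEK293, so HEK293 replicate 1 stood highest, as it did for DDIT3. The count of lower genes in the list rose without HEK293 replicate 2 and fell without either Synph-293 library, as it did over all genes. The part of the lower ER list level in the level of DDIT3 was not tested.

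Among 10 mitochondrial chaperones and proteases, 1 was called (10% of the list, against 16.6% of all genes), the protease gene YME1L1, which was lower at -0.75 ± 0.17 (SE, edgeR adjusted p = 0.0106). It was at -0.13 with the neighbour median removed (adjusted p = 0.709) and did not pass without Synph-293 replicate 1 (-0.76, adjusted p = 0.133) or 2 (-0.73, adjusted p = 0.155). Among 9 tested regulators reported upstream of serine synthesis, 2 were called (22.2%, against 16.6% of all genes). The p53 ligase MDM2 was higher at 0.74 ± 0.17 (SE, edgeR adjusted p = 0.0135) and the histone demethylase KDM4C lower at -0.57 ± 0.16 (SE, edgeR adjusted p = 0.0277). Neither passed without Synph-293 replicate 1 (MDM2 0.74, adjusted p = 0.124; KDM4C -0.57, adjusted p = 0.220) or 2 (MDM2 0.74, adjusted p = 0.1305; KDM4C -0.56, adjusted p = 0.241), and KDM4C was at -0.17 with the neighbour median removed (adjusted p = 0.588).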

How the data were processed

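The authors deposited, per the file headers, a read count and a TPM value for each gene and library; RPKM values were not used. The deposited counts are whole numbers; they were taken as rounded estimated counts, since some genes had 0 counts and a TPM above 0. Per the submitters' processing notes, the genome build was GRCh38.p13 and the tools included RSEM 1.3.1, STAR 2.7.1a, Cufflinks 2.2.1, cutadapt 2.8, HTSeq 0.11.2 and featureCounts 2.0.0, with no role given. In R 4.3.3, edgeR 4.0.16 compared Synph-293 with HEK293 by its quasi-likelihood test (1 factor, the cell line), with TMM scaling, filterByExpr (minimum count 10, minimum total 15) and Benjamini-Hochberg adjustment over 16421 genes. The SE is the log2 fold change divided by the square root of F, and intervals use its t distribution at 95%. Alternatives used DESeq2 1.42.0 and limma 3.58.1. The scripts were tested on simulated data. TPM serves for comparing levels between genes, since it is per length; CPM serves for tests. Gene coordinates are those of the deposited table. Library totals of 13284417 to 16998732 counts put a limit of 3 counts at 0.178 to 0.225 CPM, which covers counting error only.

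The 10 genes and the 9 lists (151 symbols, all found in the table) were chosen with earlier results of these data known. Named were the 10 genes, SNCAIP, ATF4, the isozyme partners, up to 4 called genes of each list with the largest change, and the 5 genes most like ALDH1L2, of which 1 is not reported here; others are marked. The libraries of a group were not duplicates (chi-square per degree of freedom 18.9 in Synph-293 and 27.0 in HEK293). Pseudogenes named after the 10 genes held at most 1 count in a library.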

Additional observations from a re-analysis of the deposited data

How the results depend on the processing

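Over the 12 alternatives ALDH1L2 had log2 fold changes between -2.85 and -2.31, and DDIT3 between -0.97 and -0.66. Those of ASNS lay between -0.59 and -0.41, of TRIB3 between -0.88 and -0.33, and of PSAT1 between -0.48 and 0.024. These are refits of the same libraries by which the 10 genes were chosen, so they describe the data and carry no test. SLC38A5, GDF15, SLC7A11, DDIT4, PDIA4, HERPUD1 and HYOU1 kept their sign in all 12, as did the other called genes named from the lists. Leaving out 1 library at a time gave 1049 to 2183 genes higher and 457 to 2042 lower, with the lowest counts when a Synph-293 library was left out and the highest when HEK293 replicate 2 was. Of the 10 genes, 2 to 5 were then lower, and the median was -0.33 to 0.0050 for the 6 enzymes and -0.63 to -0.37 for the 4 other targets. The lists then held, for folate genes, 0 to 2 higher and 0 to 7 lower; for serine and glycine use, 0 to 1 higher and 1 to 6 lower; for the purine and methyl cycle list, 0 to 1 lower; for ATF4 targets, 1 to 8 lower; for tRNA synthetases, 0 to 3 lower; for the eIF2 list, 0 to 4 lower; for ER chaperones, 4 to 10 lower; for mitochondrial chaperones, 0 to 1 higher and 0 to 1 lower; for the upstream regulators, 0 to 2 higher and 0 to 4 lower. limma on log2(TPM + 0.1) called 1086 genes higher and 474 lower, and 521 lower with a pseudocount of 1; it called 0 eIF2 list genes and 0 upstream regulators lower with either, and 0 and 1 tRNA synthetases. With no filter 3 folate genes and 5 ATF4 targets were lower.

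With the neighbour median removed, 540 genes were lower and the enzyme median was 0.038; 0 folate genes were higher and 0 lower, 1 ATF4 target and 1 tRNA synthetase were lower, and 0 genes of the eIF2, mitochondrial chaperone and upstream regulator lists were lower. The cause was not tested. No label says that replicate numbers mark a shared culture, and same-numbered libraries deviated oppositely (correlation across genes -0.28). Genes of the mitochondrial genome held 10.6% and 10.9% of counts in HEK293 replicate 1 and Synph-293 replicate 2. They held 7.76% and 7.28% in HEK293 replicate 2 and Synph-293 replicate 1. The part of this share in the spread within groups was not tested. With a replicate block 719 genes were lower, ASNS did not pass, and 0 folate genes were higher, 0 tRNA synthetases and 0 eIF2 list genes lower, and 0 upstream regulators higher and 0 lower. Crossing the numbers, a choice made after seeing the data, gave 3251 higher and 3016 lower genes. Low counts limit CHAC1 and ALDH1L1, whose intervals were the widest among the 10 genes, ATF4 and the isozyme partners.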
